A study of Homo sapiens with 6 samples.

Results

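The ZBTB family is a set of transcription factor genes named for the BTB domain and the zinc fingers of their proteins. Members were chosen by symbol, as every gene of the deposited table whose symbol is ZBTB followed by a digit, which gave 42 of 20263 genes. The family was taken up with the CSE against WT fold changes of these libraries known, so it was in effect selected on those values, and its fold changes and calls are given here as a description. The libraries were mRNA-seq of HCT116 cells, a long-established line from a human colorectal carcinoma. There were 3 samples whose treatment is labelled WT and 3 treated with CSE. The labels do not spell out CSE, and since the series title names smoking it is read here as cigarette smoke extract. The labels give no dose, exposure time, solvent control or genetic change for either group, and do not say whether the samples of a group were separate cultures, so the spread between them may be technical.

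A BTB domain at the front of the protein pairs 2 factors with each other and docks corepressors such as NCOR1 and BCOR. C2H2 zinc fingers near the other end, each holding a zinc ion between a pair of cysteines and a pair of histidines, read the DNA sequence. Most members with a known function act as repressors, and the best known set cell fate in blood and lymphoid lineages, growth arrest genes or the reading of methylated CpG. ZBTB8OS carries the letters only because it lies opposite ZBTB8A. It encodes archease, a cofactor of the tRNA splicing ligase, and has neither domain, which leaves 41 zinc finger genes. Their proteins, translated from GENCODE 29 transcripts, held between 1 and 14 matches to the C2H2 pattern with a median of 4.

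TPM, the unit of the table, is a share of transcripts corrected for length, so that levels of different genes can be compared. Every column has the same total and sequencing depth is unknown. In bulk RNA, fewer cells expressing a gene and less RNA per cell cannot be told apart. Between 12640 and 12778 genes reached 1 TPM in a library, and mitochondrially encoded genes held 27.0% to 30.2% of TPM in WT and 25.5% to 25.8% in CSE. The summed TPM of 8 epithelial markers was 5087 to 5318 in WT and 5312 to 5618 in CSE, with VIL1 near 0 in every library (mean 0.0367 in each group). Most of this sum came from KRT8, KRT18 and KRT19, which did not move together. Mean KRT19 was higher under CSE (2327 TPM, against 1840 for WT), KRT18 was lower (1488 against 1769) and KRT8 was close (1108 against 1119). Of the 7 markers tested in the fit below, 3 were higher and 1, KRT18, was lower. The sum of 10 markers of blood, vessel and fibroblast cells was 65.3 to 69.3 in WT and 56.6 to 58.8 in CSE and came almost wholly from COL1A1 and ACTA2, while PTPRC and CD3E were at 0 in all CSE libraries. The part of either shift in the results below was not tested.

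Of the 42 members, 38 reached 1 TPM in at least 3 libraries and were tested. In CSE, 18 of these were lower, 2 were higher and 18 did not pass (limma across 12793 genes, Benjamini-Hochberg adjusted p under 0.05). That is 47.4% of tested members lower and 5.26% higher; over all genes tested the same fit called 50.1%, with 25.6% lower and 24.5% higher. The values of the 2 groups did not overlap for 20 members that were lower and 3 that were higher, against 29.9% and 27.5% of all genes. The median log2 fold change of TPM + 1, taken as CSE minus WT, was -0.18 for the members and -0.0039 for all genes, and 31 of the 38 lay below 0. Without CSE replicate 3 the members' median was -0.12 and that of all genes 0.013, with 17 members lower and 3 higher. In that fit 23.7% of all genes were lower and 27.6% higher. Of the 18 members called lower, 10 were lower by at least 20% in mean TPM and 1, ZBTB34, by at least 1.5-fold.

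**Figure D1:**
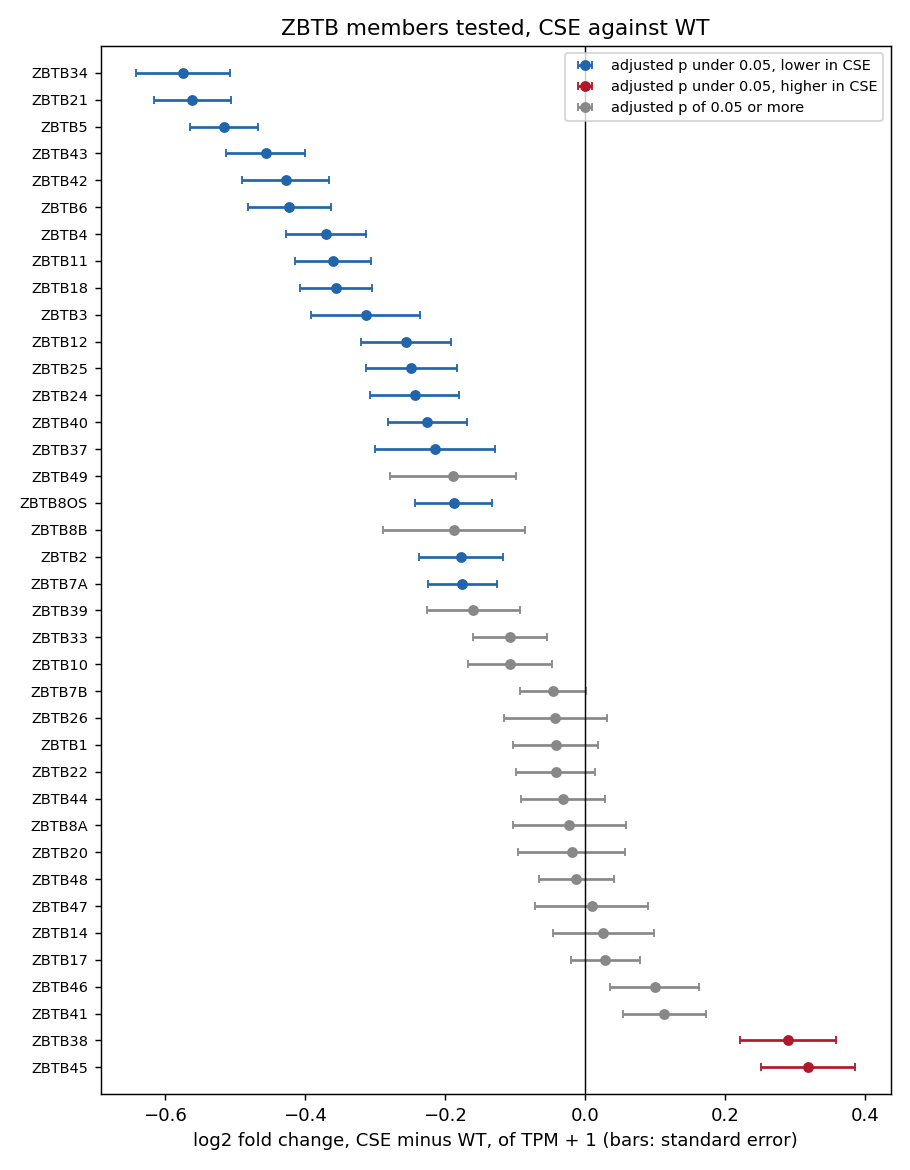
Log2 fold change (CSE minus WT, of TPM + 1) of the 38 tested members, ordered from the lowest to the highest, with bars of 1 standard error from limma. Blue points are the 18 members called lower, red points the 2 called higher (ZBTB38 and ZBTB45) and grey points the 18 that did not pass.

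The summed TPM of all 42 members was 663, 643 and 629 in the WT libraries and 569, 575 and 539 in the CSE libraries. The mean thus went from 645 ± 17.1 to 561 ± 19.6 (SD, n = 3 each), 13.0% lower, and no CSE library reached the lowest WT library. CSE replicate 3 was the lowest CSE library for 26 of the 38 tested members (68.4%) and for 57.9% of all genes tested. The most abundant members were ZBTB7B (mean of all libraries 45.7 TPM), ZBTB5 (40.1), ZBTB7A (36.5), ZBTB17 (33.2) and ZBTB4 (29.3). Their order is close in places: ZBTB7B and ZBTB5 overlapped in WT (44.5 to 49.1 and 45.8 to 48.5 TPM) and were apart in CSE (44.6 to 45.7 and 31.2 to 34.1). In all, 12 members had a mean of at least 20 TPM and 23 of at least 10.

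The 6 deepest falls were those of ZBTB34, ZBTB21, ZBTB5, ZBTB43, ZBTB42 and ZBTB6. ZBTB34 (ENSG00000177125, chromosome 9, 126860665 to 126885878, plus strand) had 11.7, 10.8 and 10.6 TPM in WT and 7.23, 7.40 and 6.58 in CSE. It was 1.56-fold lower, with a log2 fold change of -0.57 (SE 0.067). All CSE values lay well under the lowest WT value. ZBTB21 (ENSG00000173276, chromosome 21, 41986831 to 42010387, minus strand), a large zinc finger protein gene, had 28.7, 29.9 and 28.7 TPM in WT and 19.9, 20.5 and 17.8 in CSE (33.2% lower, log2 fold change -0.56, SE 0.055). ZBTB5 (ENSG00000168795, chromosome 9, 37438114 to 37465399, minus strand) had 48.5, 47.9 and 45.8 TPM in WT and 34.1, 33.3 and 31.2 in CSE. Its mean went from 47.4 ± 1.39 to 32.9 ± 1.52 TPM (SD, n = 3 each; log2 fold change -0.52, SE 0.048), the largest fall of the family in TPM units. ZBTB5 stood second in abundance over all libraries, and is described as a repressor of the CDK inhibitor gene CDKN1A.

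ZBTB43 (ENSG00000169155, chromosome 9, 126805006 to 126838210, plus strand) had 16.2, 16.1 and 15.3 TPM in WT and 11.2, 11.3 and 11.4 in CSE (log2 fold change -0.46, SE 0.057). The CSE libraries were nearly equal and far below WT. ZBTB42 (ENSG00000179627, chromosome 14, 104800596 to 104804712, plus strand) had 11.7, 11.2 and 11.5 TPM in WT and 8.69, 8.12 and 8.03 in CSE (log2 fold change -0.43, SE 0.062). ZBTB6 (ENSG00000186130, chromosome 9, 122908056 to 122913330, minus strand) had 22.4, 21.6 and 19.8 TPM in WT and 15.4, 16.6 and 14.8 in CSE (log2 fold change -0.42, SE 0.059). Groups did not overlap for any of these 6 genes, and the call held in all 15 alternative settings for each.

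**Figure D2:**
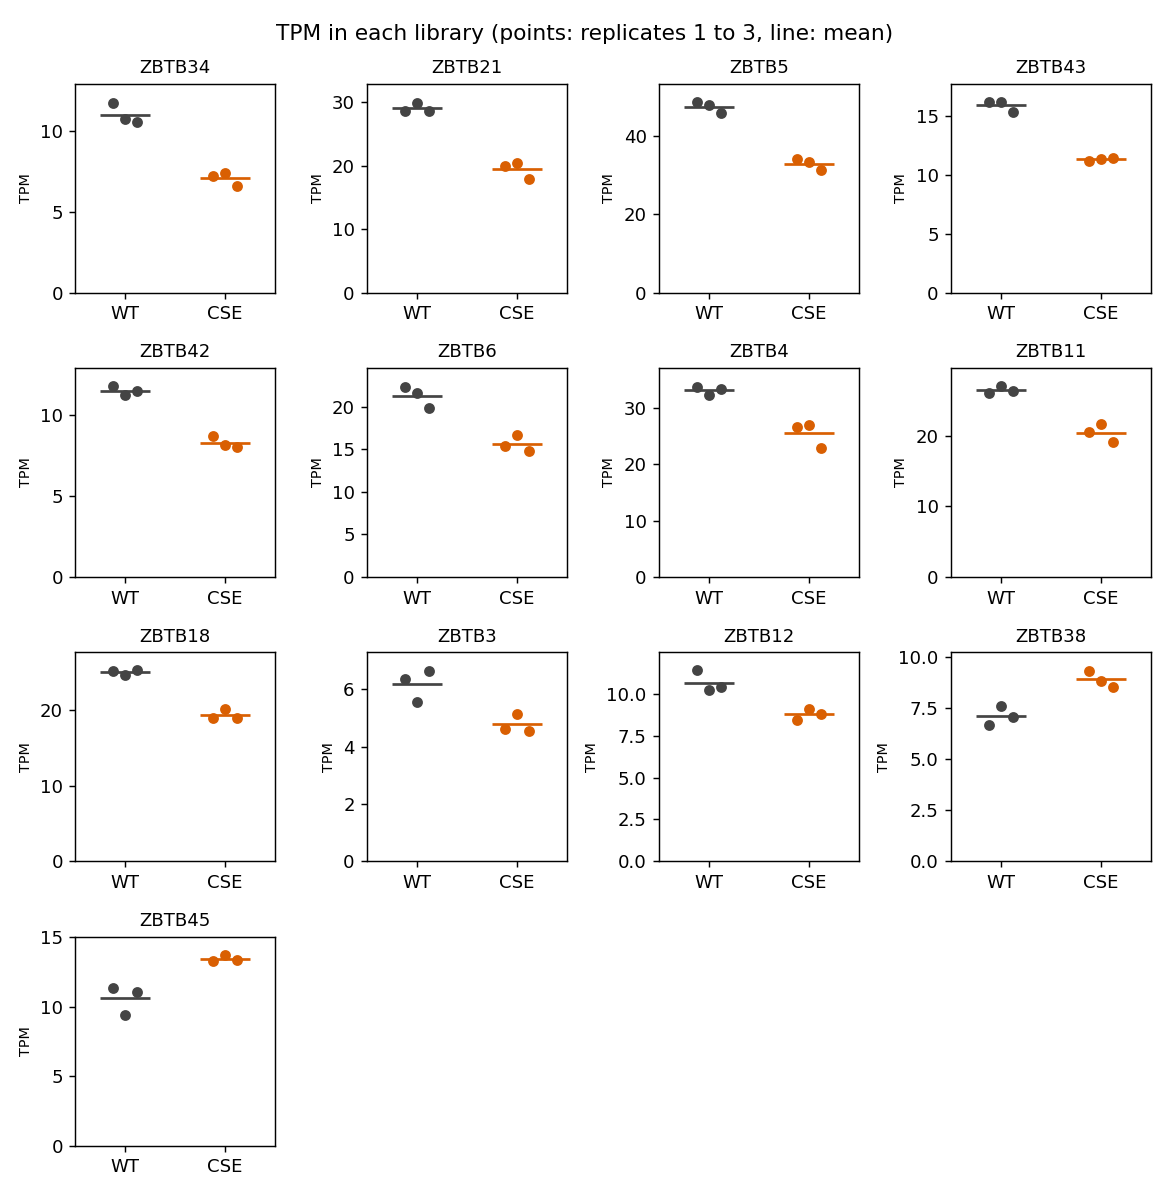
TPM (y axis, from 0) of the 13 called members whose log2 fold change was at least 0.25 in size, in the 3 WT and 3 CSE libraries; points are libraries and lines are group means. In the first 11 panels every CSE point lies below every WT point, and in the panels of ZBTB38 and ZBTB45 every CSE point lies above.

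The upstream sequences of ZBTB34 and ZBTB5 are shown because these genes carry the deepest falls among members whose single RefSeq start window is free of annotated GENCODE 29 exons. ZBTB46, which did not pass, is shown beside them. Each is the 250 bases before the RefSeq start (GRCh38.p14), 5′ to 3′ on the gene's strand, at chr9:126860389-126860638 (plus), chr9:37465451-37465700 (minus) and chr20:63831265-63831514 (minus). Capitals mark matches, on either strand, to the GC box GGGCGG. They also mark the box spelled CCAAT. The ETS element, CCGGAAG, is the last motif in capitals.
ZBTB34: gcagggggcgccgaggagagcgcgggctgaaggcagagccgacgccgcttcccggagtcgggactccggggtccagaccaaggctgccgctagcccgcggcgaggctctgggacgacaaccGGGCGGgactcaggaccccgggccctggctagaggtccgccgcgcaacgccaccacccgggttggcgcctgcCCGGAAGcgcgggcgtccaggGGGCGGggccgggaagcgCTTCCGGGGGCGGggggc
ZBTB5: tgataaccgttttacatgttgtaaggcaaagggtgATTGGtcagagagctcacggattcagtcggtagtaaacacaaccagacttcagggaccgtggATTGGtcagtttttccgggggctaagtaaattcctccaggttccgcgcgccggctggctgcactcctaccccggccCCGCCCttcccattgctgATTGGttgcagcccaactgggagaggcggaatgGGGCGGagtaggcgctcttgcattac
ZBTB46: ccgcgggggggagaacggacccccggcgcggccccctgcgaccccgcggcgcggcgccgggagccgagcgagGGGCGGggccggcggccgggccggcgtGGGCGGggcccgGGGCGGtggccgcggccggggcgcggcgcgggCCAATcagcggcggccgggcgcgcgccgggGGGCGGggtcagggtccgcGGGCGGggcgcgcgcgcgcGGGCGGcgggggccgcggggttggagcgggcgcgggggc

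The window of ZBTB34 held 3 GC boxes and 2 ETS elements at 78.0% GC, that of ZBTB5 2 GC boxes and 3 CCAAT boxes at 56.0% GC, and that of ZBTB46 6 GC boxes and 1 CCAAT box at 91.6% GC. The last was the highest GC content of any member window, so ZBTB46 does not stand for members that did not pass. ZBTB8A and ZBTB39, also not called and free of exons there, held 0 and 4 GC boxes at 57.2% and 75.6% GC. RefSeq start windows were at hand for 35 of the 41 zinc finger members (68 windows). A GC box was found in 57.4% of these windows and in 42.6% of all 35116 windows, which had a median GC content of 62.8% and 58.0%. By gene, 14 of 15 members called lower and 17 of 20 other members had a GC box in at least 1 window. By window, the box was in 15 of the 21 windows of members called lower and in 39 of all 68 member windows. CCAAT was in 38.2% of member windows and 32.0% of all, CCGGAAG in 17.6% and 8.52%, the E-box CACGTG in 10.3% and 6.34%, the cAMP response element TGACGTCA in 2.94% and 1.65%, and the AP-1 element TGANTCA in 5.88% and 6.57%. The site TCCTGCNA described for ZBTB33 was in 7.35% and 3.74%, and the palindrome CTCGCGAG in 0 of 68 and 0.874%. These shares are descriptions of letters in the windows, both strands searched, and some genes contribute several windows.

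ZBTB38 and ZBTB45 were the 2 members that rose. ZBTB38 (ENSG00000177311, chromosome 3, 141324213 to 141449792, plus strand), which binds methylated CpG, had 6.69, 7.61 and 7.05 TPM in WT and 9.35, 8.86 and 8.55 in CSE. It was 25.3% higher (log2 fold change 0.29, SE 0.068), and the groups did not overlap. ZBTB45 (ENSG00000119574, chromosome 19, 58513530 to 58538911, minus strand) had 11.4, 9.39 and 11.1 TPM in WT and 13.3, 13.7 and 13.4 in CSE, 1.27-fold higher (log2 fold change 0.32, SE 0.067). WT replicate 2 was the lowest library, and the CSE libraries were nearly equal. ZBTB41 had no overlap either (11.8 to 12.4 TPM in WT and 12.7 to 13.8 in CSE) but did not pass (log2 fold change 0.11).

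The 3 members known to read methylated CpG did not share a direction. ZBTB4 (ENSG00000174282, chromosome 17, 7459366 to 7484263, minus strand) had 33.8, 32.3 and 33.4 TPM in WT and 26.6, 27.0 and 22.9 in CSE, 1.30-fold lower (log2 fold change -0.37, SE 0.057). CSE replicate 3 was the lowest, and the other CSE libraries were also below WT. ZBTB33, which encodes Kaiso, had 22.6, 24.9 and 23.6 TPM in WT and 22.2, 22.4 and 21.2 in CSE (log2 fold change -0.11) and did not pass, although the groups did not overlap. It was called lower (-0.16) once the mitochondrial genome's genes were removed, where 34.7% of all genes tested were lower. MMP7, a reported target of Kaiso, had 0.40, 0.50 and 0.75 TPM in WT and 0.98, 1.04 and 0.96 in CSE and was below the filter. ZBTB38 was higher, as given above. Among other methyl-CpG readers, MBD2 and MBD4 were higher (log2 fold change 0.16 and 0.25), UHRF1 was lower (-0.15), and MBD1 did not pass. MBD3, listed with them, did not pass either.

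ZBTB2, described as a repressor of CDKN1A, had 11.9, 12.5 and 11.9 TPM in WT and 10.9, 10.4 and 10.4 in CSE (log2 fold change -0.18, SE 0.060), and its call ended without WT replicate 2 or CSE replicate 2. ZBTB17, which encodes MIZ1, the partner through which MYC represses genes, had 34.7, 32.1 and 31.9 TPM in WT and 34.6, 32.9 and 33.2 in CSE. These ranges overlapped widely (log2 fold change 0.029). ZBTB49, which acts on CDKN1A, had 6.37, 4.58 and 4.98 TPM in WT and 4.53, 4.74 and 4.23 in CSE (log2 fold change -0.19) and did not pass. Its value rested on single WT libraries: without WT replicate 1 it was -0.072 (limma adjusted p = 0.52), and without WT replicate 2 it was called (-0.27, limma adjusted p = 0.0236).

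CDKN1A itself, a reported target of ZBTB2, ZBTB4, ZBTB5 and ZBTB17, had 346, 326 and 323 TPM in WT and 329, 323 and 309 in CSE and did not pass (log2 fold change -0.050, limma adjusted p = 0.301). It was called lower under quantile normalization and after removal of the mitochondrial genome's genes (-0.11 in both). In these settings 27.0% and 34.7% of all genes tested were lower. CDKN2B, another CDK inhibitor gene under MIZ1, rose from 13.2 ± 1.14 to 16.2 ± 0.231 TPM (SD, n = 3 each; limma adjusted p = 0.000851). Of 10 DNA and dimer partners of the members, 6 rose and 2 fell, where 24.5% of all genes tested were higher and 25.6% lower. MYC went from 466 ± 13.6 to 332 ± 19.6 TPM (log2 fold change -0.49, limma adjusted p = 4.31e-09) and its partner MAX from 40.3 ± 2.31 to 33.6 ± 1.99 (-0.26). SP3 rose from 34.7 ± 0.877 to 41.7 ± 1.09 TPM (0.26).

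Of the members with a described part in metabolism, ZBTB7A was slightly lower and ZBTB1 did not pass. ZBTB7A (chromosome 19, 4044364 to 4066945, minus strand), also called LRF, had 41.3, 37.5 and 37.6 TPM in WT and 34.1, 35.1 and 33.4 in CSE (log2 fold change -0.18, SE 0.049). The lowest WT and highest CSE libraries lay close together. It is described as a repressor of the glycolysis genes SLC2A3, PFKP and PKM. SLC2A3 was higher in CSE (5.89 to 9.21 TPM, log2 fold change 0.57, limma adjusted p = 1.11e-06), as was PKM (932 to 1141 TPM, 0.29, limma adjusted p = 6e-07), and PFKP did not pass (0.035, limma adjusted p = 0.497). ZBTB1, a lymphoid factor described as needed for expression of the asparagine synthetase gene ASNS, had 11.1, 11.2 and 10.4 TPM in WT and 10.4, 10.4 and 10.8 in CSE (log2 fold change -0.042). ASNS went from 840 to 475 TPM (log2 fold change -0.82). Whether any listed target moved because of its factor was not tested.

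Among repressors of development, ZBTB18 fell. ZBTB18 (ENSG00000179456, chromosome 1, 244048939 to 244057476, plus strand), known for its part in cortical neurons, had 25.3, 24.8 and 25.3 TPM in WT and 19.04, 20.2 and 19.1 in CSE. It was 1.29-fold lower (log2 fold change -0.36, SE 0.051), and the groups stood well apart. Of its reported targets, the inhibitors of differentiation, ID1 rose from 606 ± 17.2 to 828 ± 21.2 TPM (log2 fold change 0.45), ID2 rose from 76.0 ± 4.29 to 99.6 ± 4.48 (0.39) and ID3 rose from 125 ± 1.88 to 140 ± 4.28 (0.17). ID4 had means of 1.63 and 1.75 TPM and did not pass (0.055). ZBTB20, known as a repressor of the liver gene AFP, had 7.38, 7.32 and 6.95 TPM in WT and 7.52, 7.75 and 6.15 in CSE. The CSE libraries spanned the whole WT range (log2 fold change -0.019), and AFP was at or near 0 in every library. ZBTB10, a repressor described at SP family promoters, had 15.3, 15.8 and 14.5 TPM in WT and 14.5, 14.6 and 13.1 in CSE and did not pass (log2 fold change -0.11); of its reported targets SP3 rose, and SP1 (-0.063) and SP4 (-0.0097) did not pass.

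Of the members known from genome maintenance, ZBTB24 was lower and ZBTB48 was not called. ZBTB24, a gene of the immunodeficiency, centromeric instability and facial anomalies syndrome, had 9.65, 10.2 and 9.30 TPM in WT and 8.26, 7.96 and 7.93 in CSE (log2 fold change -0.24, SE 0.064). Its reported target CDCA7, another gene of that syndrome, fell from 45.3 ± 0.479 to 38.6 ± 0.479 TPM (SD, n = 3 each; -0.22, limma adjusted p = 0.000239). ZBTB48, which encodes the telomere-binding protein TZAP, had 26.8, 23.5 and 24.5 TPM in WT and 24.7, 24.4 and 24.97 in CSE (log2 fold change -0.012). Its reported target MTFP1 did not pass (-0.22, limma adjusted p = 0.0803) and was spread from 5.91 to 9.47 TPM in WT; without WT replicate 1 the value was -0.095 (limma adjusted p = 0.515), and without WT replicate 3 it was called (-0.39). The replication gene MCM10, described as repressed by ZBTB38, fell from 20.7 ± 0.600 to 17.1 ± 0.448 TPM (-0.26).

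Further members called lower were ZBTB11, ZBTB3, ZBTB12, ZBTB25, ZBTB40 and ZBTB37. ZBTB11 had 26.0, 27.0 and 26.3 TPM in WT and 20.5, 21.7 and 19.1 in CSE (log2 fold change -0.36, SE 0.054). ZBTB3 had 6.35, 5.54 and 6.64 TPM in WT and 4.63, 5.14 and 4.54 in CSE (log2 fold change -0.31, SE 0.078), with WT replicate 2 the nearest to the CSE libraries. ZBTB12 (log2 fold change -0.26), ZBTB25 (-0.25) and ZBTB40 (-0.22) had smaller falls with no overlap between groups. ZBTB37 was the member just inside the threshold, with 5.87, 5.91 and 5.42 TPM in WT and 5.30, 5.22 and 3.98 in CSE (log2 fold change -0.21, limma adjusted p = 0.0428). The call ended in 7 of 15 alternative settings, among them leaving out any 1 of the WT libraries, and without CSE replicate 3, its lowest library, the log2 fold change was -0.10. ZBTB39 was just outside, with 18.1, 16.4 and 17.3 TPM in WT and 16.2, 16.5 and 13.5 in CSE (log2 fold change -0.16, limma adjusted p = 0.0518), and was called in 8 alternative settings. ZBTB8OS, which is no zinc finger gene, went from 23.6 ± 1.66 to 20.6 ± 0.410 TPM (log2 fold change -0.19), a call that ended without WT replicate 1. Without it the zinc finger members numbered 17 lower and 2 higher of 37.

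ZBTB7B, known as the factor of the helper T cell lineage, had the highest mean of the family with 49.1, 45.8 and 44.5 TPM in WT and 44.6, 45.7 and 44.6 in CSE (log2 fold change -0.046). ZBTB46, a dendritic cell marker gene, had 10.02 to 11.5 TPM in WT and 11.2 to 11.9 in CSE (log2 fold change 0.10) and did not pass. ZBTB16, which encodes the leukemia-linked factor PLZF, was listed at 0 in all 6 libraries, and ZBTB32 was between 0.10 and 0.21 TPM. ZBTB7C (0.39 to 0.83 TPM) was also below the filter. ZBTB9 was also listed at 0 throughout.

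The remaining members did not pass. ZBTB26, ZBTB22, ZBTB44, ZBTB8A, ZBTB47 and ZBTB14 had log2 fold changes between -0.042 and 0.027, each smaller than its standard error. ZBTB8B, at 1.31 TPM on average, had no overlap between groups (1.32 to 1.58 in WT and 0.98 to 1.27 in CSE) but did not pass (log2 fold change -0.19, SE 0.10). On chromosome 1, ZBTB8A and ZBTB8B share 25.2% and 11.5% of their exon bases with a locus annotated on the same strand, which makes their values uncertain.

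Related and adjacent members moved alike in some cases and not in others. ZBTB18 and ZBTB42, the closest pair by protein sequence (53.6% of the shorter protein identical in a global alignment), were both called lower. ZBTB6 and ZBTB26, the next pair (45.5%), lie 2.24 kb apart on the minus strand of chromosome 9, and ZBTB6 was lower (log2 fold change -0.42) while ZBTB26 did not pass (-0.042). In the pair of ZBTB20 and ZBTB45 (45.2%) only ZBTB45 was called. ZBTB37 and ZBTB34 (44.9%) were both called lower. ZBTB22 (-0.042, not called) and ZBTB43 (-0.46) share 44.3%. ZBTB43 and ZBTB34 lie 22.5 kb apart on the plus strand of chromosome 9 and both fell. ZBTB25 and ZBTB1 start on opposite strands of chromosome 14 with gene bodies that overlap, and had log2 fold changes of -0.25 and -0.042. They share 507 exon bases, 4.15% of those of ZBTB25 and 9.60% of those of ZBTB1, and reads there cannot be told apart unless strand was used. The differences within these pairs were not tested.

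The number of coding exons was set beside the fold changes. All 6 members with a log2 fold change under -0.4 had 1 coding exon in the representative GENCODE 29 transcript. The next deepest falls, ZBTB4 (-0.37), ZBTB11 (-0.36) and ZBTB18 (-0.36), were in members with 2, 11 and 2 coding exons. Of the 13 tested members with 1 coding exon 7 were lower and 1, ZBTB38, was higher, with a median of -0.26. Of the 25 tested members with more coding exons, ZBTB8OS among them, 11 were lower and 1 higher, with a median of -0.18. Over all genes tested, 36.8% of the 710 with 1 coding exon were lower (median -0.078) and 24.9% of the 12013 with more (median -0.00069). Across the 37 tested zinc finger members, which share the same libraries, Spearman's rho with the log2 fold change was 0.34 for the number of coding exons, 0.25 for the number of C2H2 matches, -0.13 for transcript length and 0.055 for GC content of the transcript. Over the 12723 tested genes with a structure value, rho was 0.051 for the number of coding exons and -0.16 for transcript length. These are descriptions without a test.

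**Figure D3:**
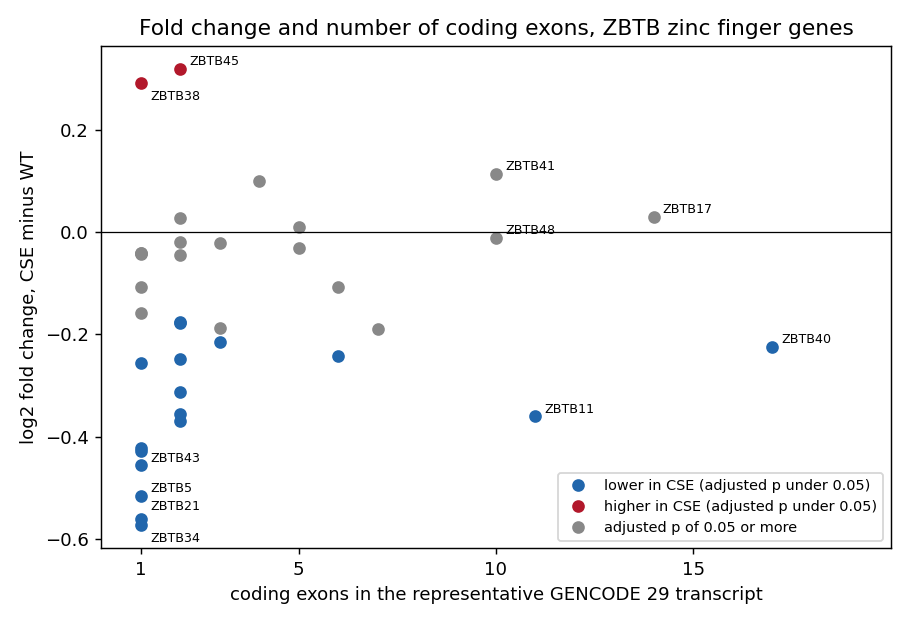
Log2 fold change (CSE minus WT, y axis) against the number of coding exons (x axis) for the 37 tested zinc finger members, coloured by call. The 6 members under -0.4 all have 1 coding exon, and ZBTB11 and ZBTB40 are members called lower with over 10.

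Of 8 BTB zinc finger genes that carry another name, 6 were tested. Of these 2 (33.3%) were lower, near the 25.6% of all genes tested, and 0 were higher, with a median log2 fold change of -0.13. BCL6, the germinal centre repressor, had 27.2, 26.1 and 27.1 TPM in WT and 24.0, 23.6 and 21.7 in CSE (-0.21, limma adjusted p = 0.00257). GZF1 had 14.6, 14.0 and 13.5 TPM in WT and 13.1, 12.3 and 11.4 in CSE (-0.18, limma adjusted p = 0.0185), a call that ended without WT replicate 1 and without the filter. HIC2 (-0.13), MYNN (-0.12), PATZ1 (-0.12) and ZNF131 (0.039) did not pass, and BCL6B and HIC1 were below 1 TPM. Here 0 were higher in limma at an unadjusted p under 0.05. The number lower was 5 once the mitochondrial genome's genes were removed, where 34.7% of all genes tested were lower (median -0.059).

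Corepressors that the family docks were higher or did not pass. Among 22 partner genes, 9 rose in CSE, 0 fell (0 lower in limma at an unadjusted p under 0.05) and the other 13 were not called. The share higher was 40.9%, against 24.5% of all genes tested, where 25.6% were lower. Their median log2 fold change was 0.042. Removal of the mitochondrial genome's genes gave 4 called lower, where 34.7% of all genes tested were lower. Leaving out CSE replicate 2 gave 1, where 25.1% were lower. CHD4, the remodeller of the NuRD complex, rose from 140 ± 0.416 to 188 ± 3.87 TPM (SD, n = 3 each; 0.42, limma adjusted p = 6.38e-09). The deacetylase gene HDAC1 rose from 228 ± 2.86 to 295 ± 1.12 TPM (0.37), BCOR rose from 12.2 ± 0.588 to 15.2 ± 1.45 (0.29) and the NuRD subunit gene MTA3 rose from 11.5 ± 0.0551 to 13.9 ± 0.356 (0.24). NCOR1 (-0.038) and the ubiquitin ligase scaffold gene CUL3 (-0.016) did not pass.

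Set beside other symbol families, the members had a lower median than the large ZNF family. Of these families the KLF genes came nearest to them in median and share lower, and the KLHL and KBTBD genes in share higher. Of 361 tested genes with the root ZNF, C2H2 factors mostly without a BTB domain, 22.4% were lower and 20.2% higher (median log2 fold change -0.0099). Of 34 tested genes with the roots KLHL or KBTBD, which join a BTB domain to kelch repeats, 13 (38.2%) were lower and 1 (2.94%) higher (median -0.069). Of 15 tested KLF genes, C2H2 factors without a BTB domain, 7 were lower and 2 higher (-0.13). That is 46.7% lower and 13.3% higher, beside 47.4% and 5.26% of the ZBTB members. Among the 9190 genes whose mean TPM lay in the range of the tested members (1.31 to 45.7), 26.4% were lower and 21.0% higher (median -0.018). The difference between these sets and the ZBTB members was not tested.

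**Figure D4:**
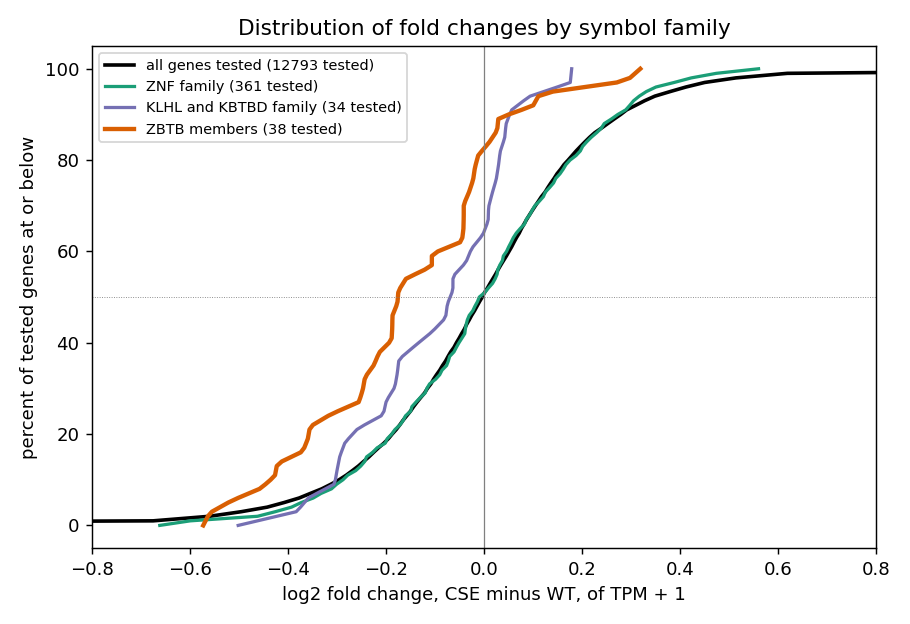
Cumulative distribution of the log2 fold change (CSE minus WT, x axis, drawn from -0.8 to 0.8) over tested genes (y axis, percent at or below), by symbol family. The curve of the 38 ZBTB members crosses 50% at -0.18, that of 34 KLHL and KBTBD genes at -0.069, and those of 361 ZNF genes and of all 12793 genes at -0.0099 and -0.0039. The 15 tested KLF genes (median -0.13) are not drawn.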

How the data were processed

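Per the labels' protocols, Trizol RNA of HCT116 cells was treated with DNase and made into mRNA-seq libraries. Tools listed in the submitters' processing notes, without roles, were HISAT2 2.0, bedtools 2.26.0, Trimmomatic 0.36 and FastQC 0.11.2, with the build GRCh38. How genes were counted, with which annotation and whether by strand is not given in the sources used here. TPM values were deposited by the authors for 20263 genes, which keep no depth, so no count model or detection floor was used. Symbols matched 20148 gene IDs, and positions come from GENCODE 29.

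Genes with at least 1 TPM in at least 3 libraries (12793) were transformed to log2(TPM + 1), a scale that understates the change of low genes, and fitted with limma 3.58.1 in R 4.3.3 (mean-variance trend, all 6 samples, no covariate), with Benjamini-Hochberg adjustment over all of them. The procedure was tested on simulated data. These had independent noise and far fewer changed genes than were called here, so they do not give the error rate of these calls. No set test was run for the family. Zinc fingers were counted with the pattern of 2 to 4 residues between cysteines, 12 to the first histidine and 3 to 5 between histidines. Values by sample were given for members called with an absolute log2 fold change of at least 0.3, those called higher, the 5 most abundant, the nearest to the threshold on each side and those with known roles. Reported targets, the other BTB zinc finger genes and up to 4 called genes of each other list were named with a fold change, group means or values by sample; a few further members and list genes were named for context after their values were seen. The members and lists were chosen with earlier results of these data known. Alternatives were other pseudocounts, filters, scalings, priors, a replicate block, and each sample left out. Values of a few genes on these lists are not reported here.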

Additional observations from a re-analysis of the deposited data

How the results depend on the processing

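In 15 alternative settings the members called lower numbered 16 to 23 and those called higher 2 to 4. Over all genes tested the share lower ran from 17.5% to 34.7% and the share higher from 15.8% to 27.6%. The count of 23 came with mitochondrially encoded genes left out, the setting where 34.7% of all genes were lower. Of the 18 members called lower, 15 kept the call in every setting, as did the 2 called higher. ZBTB37, ZBTB2 and ZBTB8OS lost it in some, and 8 uncalled members were called in at least 1. The number called higher was 4 under quantile normalization, with ZBTB41 and ZBTB46 added, where 27.1% of all genes were higher. The members' median log2 fold change of -0.18 was -0.23 when mitochondrially encoded genes were left out, where the median of all genes was -0.059 and 34.1% of all calls were higher in CSE, against 48.9%. Leaving out each sample in turn gave medians of -0.20 to -0.12, the smallest in size without CSE replicate 3. The pairing of replicate numbers was checked: same-numbered samples had deviations correlated at -0.071, 0.015 and -0.088, so no shared deviation by number was seen. With so few samples this cannot tell whether they were handled in pairs. With the replicate block 19 members were lower and 2 higher, with a median of -0.18 and 6537 genes called against 6407. Sign changes occurred in 8 members, none of them among the 20 called. With mitochondrially encoded genes left out, values were -0.041 for ZBTB47, -0.025 for ZBTB14, -0.027 for ZBTB17, -0.016 for ZNF131 and -0.023 for PFKP. Under quantile normalization they were 0.028 for ZBTB8A, 0.017 for ZBTB20, -0.016 for PFKP and 0.017 for SP4. Leaving out each sample in turn gave values on both sides of 0, from -0.073 to 1.04e-05 for ZBTB22, -0.062 to 0.016 for ZBTB44, -0.067 to 0.013 for ZBTB8A, -0.074 to 0.072 for ZBTB20, -0.053 to 0.039 for ZBTB48, -0.038 to 0.097 for ZBTB47, -0.028 to 0.070 for ZBTB14, -0.12 to 0.019 for SP1, -0.082 to 0.10 for SP4 and -0.054 to 0.16 for ID4. The cause of these changes was not tested.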
